A study of Mus musculus with 6 samples.

Results

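The 10 genes described here were chosen by their symbols because their proteins sit on the surface of tumor cells or antigen-presenting cells and are read by T cells, natural killer cells or macrophages. They are *Cd274*, *Pdcd1lg2*, *Cd80*, *Cd86*, *Cd47*, *Pvr*, *Pvrl2* (now named *Nectin2*), *Tnfsf9*, *Icosl* and *Cd276*. All were found among the 24346 gene symbols. RNA sequencing compared 3 replicates of the parental cells with 3 replicates of the mutant M8. The parental cells, CT26.mMR1, are a mouse colorectal tumor line, CT26, that overexpresses mouse MR1 from a retrovirus, and M8 is a clone of these cells obtained by limiting dilution after treatment with the mutagen ENU, so that it carries the MR1 transgene too. M8 was picked because it activated a reporter line with a mucosal-associated invariant T cell receptor more strongly and had more MR1 on its surface. The mutant line is thus 1 clone, and the sample titles carry the label cl9 for both lines, which the sources used here do not explain.

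A T cell needs more than its receptor. CD80 and CD86 on the presenting cell bind CD28, which gives a second activating signal, and CTLA-4, which opposes it, whereas ICOS ligand (*Icosl*) and 4-1BB ligand (*Tnfsf9*) feed related activating receptors. PD-L1 (*Cd274*) and PD-L2 (*Pdcd1lg2*) bind the inhibitory receptor PD-1. The nectin-like protein CD155 (*Pvr*) and nectin-2 (*Pvrl2*) are shared by the activating receptor DNAM-1 and the inhibitory receptor TIGIT, CD47 restrains macrophages through SIRPα, and B7-H3 (*Cd276*) belongs to the same immunoglobulin family as CD80 with a receptor that is not settled. Interferon-γ is a well-known inducer of PD-L1, acting in part through IRF1.

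The labels give colon as the tissue. Of 11 markers of colon epithelium, *Epcam*, *Cdh1*, *Krt19* and *Cdx2* were listed at 0 in all 6 libraries and 3 passed a mean of 1 FPKM, led by *Krt18* (2 of the 3, *Krt20* and *Lgals4*, were lower in M8), while *Vim*, a mesenchymal marker, averaged 1921 FPKM in the parental line and 2015 FPKM in M8. Of 7 mesenchymal markers, 6 passed a mean of 1 FPKM, *Fn1* was lower in M8 (622.4 to 488.4 FPKM, log2 fold change -0.35, adjusted p = 0.000917 by limma), *Pdgfrb* was higher (21.4 to 25.6 FPKM, log2 fold change 0.25, adjusted p = 0.00787 by limma), and *Acta2* reached at most 0.0177 FPKM. FPKM scales the fragments of a gene by the length of its exons and by the depth of the library, so that levels of different genes can be compared. Immune cells carry several of the 10 genes at high levels. *Ptprc*, the marker of all leukocytes, reached at most 0.00797 FPKM, and of 7 T cell markers *Cd3d*, *Cd3e*, *Cd2* and *Cd8a* were at 0, with sums of 0.494 to 0.794 FPKM in parental libraries and 0.660 to 1.14 FPKM in those of M8. Most of each sum came from *Lck*, a kinase of the T cell receptor, at 0.467, 0.559 and 0.633 FPKM in parental and 1.14, 0.660 and 0.878 FPKM in M8 libraries, which did not overlap but were too low to be tested by limma. The 9 myeloid and dendritic markers summed to 15.8 to 16.9 FPKM and 17.5 to 19.0 FPKM, nearly all of it from *Cd14*, which was higher in M8 (log2 fold change 0.15, adjusted p = 0.0489 by limma, lost in 5 of 17 alternatives with values up to 0.173), while *Adgre1*, *Csf1r* and *Fcgr3* were at 0. *Mr1* lay between 1034 and 1139 FPKM in the 6 libraries. From the size of the step between low values, the relative depth was 0.942 to 1.07 in the parental libraries (mean set to 1) and 0.765 to 0.868 in the M8 libraries. The part of depth and of these markers in the differences below was not tested, and in bulk RNA fewer cells with a transcript cannot be told apart from less transcript per cell.

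*Cd274* and *Pdcd1lg2*, the genes of both PD-1 ligands, are neighbors on chromosome 19 (29367455 to 29388095 and 29410919 to 29471161, mouse genome GRCm38, plus strand, 22.8 kb apart). *Pvrl2* (19716644 to 19750483) and *Pvr* (19903578 to 19921160) lie 153.1 kb apart on the minus strand of chromosome 7. *Cd80* (38455561 to 38496335), *Cd86* (36603869 to 36666081) and *Cd47* (49800533 to 49915010) are on chromosome 16, *Tnfsf9* on chromosome 17 (57105325 to 57107757), *Icosl* on chromosome 10 (78069302 to 78083913) and *Cd276* on chromosome 9 (58524298 to 58555437). The positions are those of GENCODE M21, since the deposited tables give symbols only. GENCODE places exons of a gene of the opposite strand over exons of *Cd274*, *Cd276*, *Pvrl2* and *Tnfsf9*. The libraries were stranded, but the sources used here do not say whether the counting used the strand, so reads of these partners may be included.

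The 250 bases before the RefSeq start of 4 of the genes are shown. *Cd274* was chosen because it was expressed, at a low level, and its neighbor *Pdcd1lg2* because it had almost no reads. *Cd80* and *Pvrl2* were chosen because they were lower in M8. Each runs 5′ to 3′ on the strand of its gene. The windows are chr19:29367188-29367437 and chr19:29410669-29410918 on the plus strand, chr16:38458683-38458932 on the plus strand and chr7:19749574-19749823 on the minus strand, in GRCm38.p6. The *Cd80* and *Pvrl2* windows lie inside the GENCODE spans of their genes given above, which begin further upstream than the RefSeq starts. Capitals mark every match, on either strand, to the motif letters given after the sequences.

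Cd274: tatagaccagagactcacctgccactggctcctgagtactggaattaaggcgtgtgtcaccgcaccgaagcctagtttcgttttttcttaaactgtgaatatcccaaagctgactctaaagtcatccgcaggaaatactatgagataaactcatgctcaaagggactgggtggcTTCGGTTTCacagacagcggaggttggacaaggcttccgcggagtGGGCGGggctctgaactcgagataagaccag

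Pdcd1lg2: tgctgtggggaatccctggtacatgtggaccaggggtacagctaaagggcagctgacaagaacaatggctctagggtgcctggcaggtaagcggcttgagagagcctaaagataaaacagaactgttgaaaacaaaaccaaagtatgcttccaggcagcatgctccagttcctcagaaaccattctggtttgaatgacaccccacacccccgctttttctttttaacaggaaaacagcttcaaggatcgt

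Cd80: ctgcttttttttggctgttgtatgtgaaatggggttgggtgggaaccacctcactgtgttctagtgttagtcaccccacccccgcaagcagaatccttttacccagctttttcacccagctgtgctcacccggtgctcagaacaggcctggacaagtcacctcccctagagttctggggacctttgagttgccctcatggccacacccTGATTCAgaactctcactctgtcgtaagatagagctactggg

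Pvrl2: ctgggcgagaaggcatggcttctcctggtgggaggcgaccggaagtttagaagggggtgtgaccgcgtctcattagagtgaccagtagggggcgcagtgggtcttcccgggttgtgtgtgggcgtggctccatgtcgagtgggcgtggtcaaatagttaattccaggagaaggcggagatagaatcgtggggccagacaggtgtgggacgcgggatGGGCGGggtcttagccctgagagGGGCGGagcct

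The letters searched were GAAANNGAA for interferon regulatory factors, GGNNTTTCC for NF-κB, TGANTCA for AP-1 and GGGCGG for the GC box. They were found in 7.13%, 4.93%, 6.75% and 32.7% of 32851 RefSeq windows of this length. The *Cd274* window held the interferon regulatory factor letters once, from 76 to 68 bases before the start, and the GC box once. The *Cd80* window held AP-1 letters from 42 to 36 bases before the start, the *Pvrl2* window held the GC box 2 times, and the *Pdcd1lg2* window held none of the 4. Windows were given for 7 of the 10 genes. *Cd86*, *Pvr* and *Tnfsf9*, the last also lower in M8, had none and were not searched. In the windows not shown, GC box letters were found for *Cd47*, *Cd276* and *Icosl*. NF-κB letters were found for *Cd276*, where 1 GC box match overlapped them. A match describes these letters only and is not evidence that a factor binds.

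The 10 genes spanned a wide range of abundance, in nearly the same order in both lines. *Pvr*, *Cd47* and *Pvrl2* were the most abundant, *Cd80*, *Cd276* and *Tnfsf9* intermediate and *Cd274* low, while *Pdcd1lg2*, *Icosl* and *Cd86* were at or near 0. By mean FPKM, *Pvr* and *Cd47* were at the 87.3rd percentile of the 10597 genes with a mean of at least 1 FPKM, *Pvrl2* at the 83.4th, *Cd80* at the 61.3rd, *Cd276* at the 57.4th, *Tnfsf9* at the 43.9th and *Cd274* at the 9.56th. In parental cells the replicates of *Pvr* and *Cd47* overlapped, and the other neighbors in this order were separate down to *Cd274*. In M8 the replicates of *Cd47* and *Pvr* overlapped, and so did those of *Cd80* and *Cd276*. The 10 genes summed to 242.1 to 260.2 FPKM in the parental libraries and to 232.9 to 243.9 FPKM in those of M8.

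**Figure D1:**
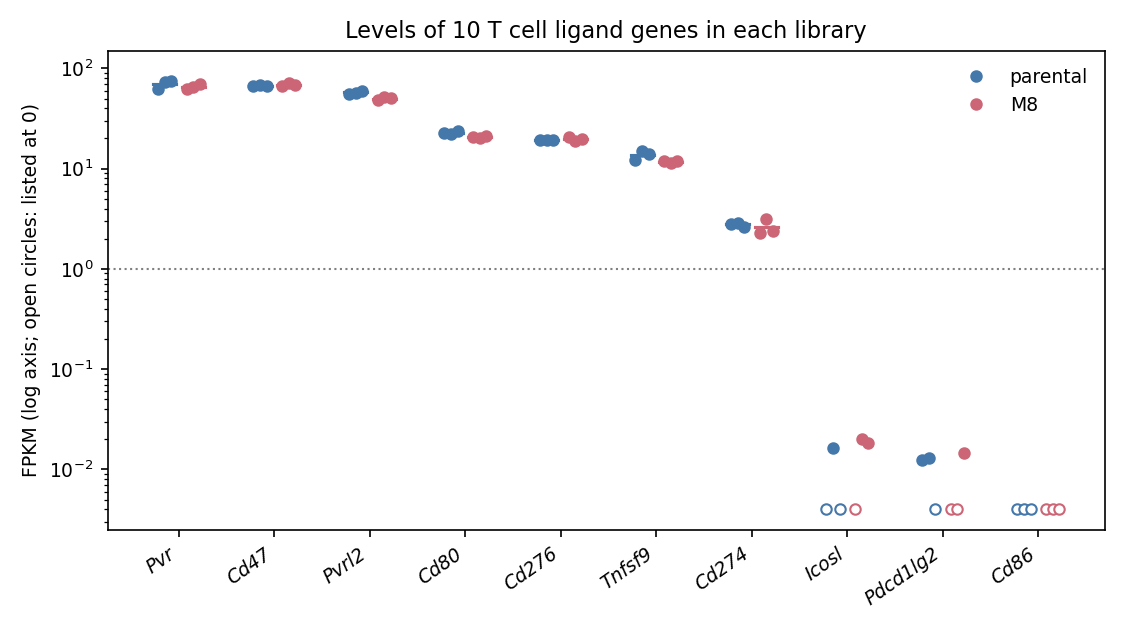
FPKM (log axis) of the 10 ligand genes in each of 3 parental (blue) and 3 M8 (red) libraries. Filled points are single libraries, short lines are means, open circles at the bottom are libraries listed at 0, and the dotted line marks 1 FPKM. *Pvr*, *Cd47* and *Pvrl2* sit highest, and *Icosl*, *Pdcd1lg2* and *Cd86* lie far below the other 7.

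Of the 7 genes that could be tested, 3 were lower in M8 and none was higher. Mean FPKM fell by 13.4% for *Pvrl2*, fell by 14.4% for *Tnfsf9* and fell by 9.26% for *Cd80*. The test was limma on log2(FPKM + 1) over the 10597 genes, letting the variance follow the level, and the threshold was the false discovery rate of the study, an adjusted p below 0.1 by the Benjamini-Hochberg method. By this rule 16.5% of all genes tested were lower and 21.2% were higher (1745 and 2250 genes). The split turned to 2769 lower and 1470 higher with upper-quartile scaling and to 2209 lower and 1658 higher with TPM, and the 3 members kept their calls in both. Of the 7 genes, 3 had replicates that did not overlap between the lines, against 45.2% of all genes tested. At an unadjusted limma p below 0.05, counting both directions, 3 of the 7 members passed, against 4349 of the 10597 genes tested. These 3 were the same genes, all lower in M8, and no member was higher at this level either (0 of 7). The median log2 fold change of the 7 was -0.087, against 0.0069 for all genes tested. The other 3 genes did not reach a mean of 1 FPKM. The study describes the samples of each line as biological replicates, but neither it nor the labels say whether they were separate cultures, so the p-values measure only the spread between these samples.

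**Figure D2:**
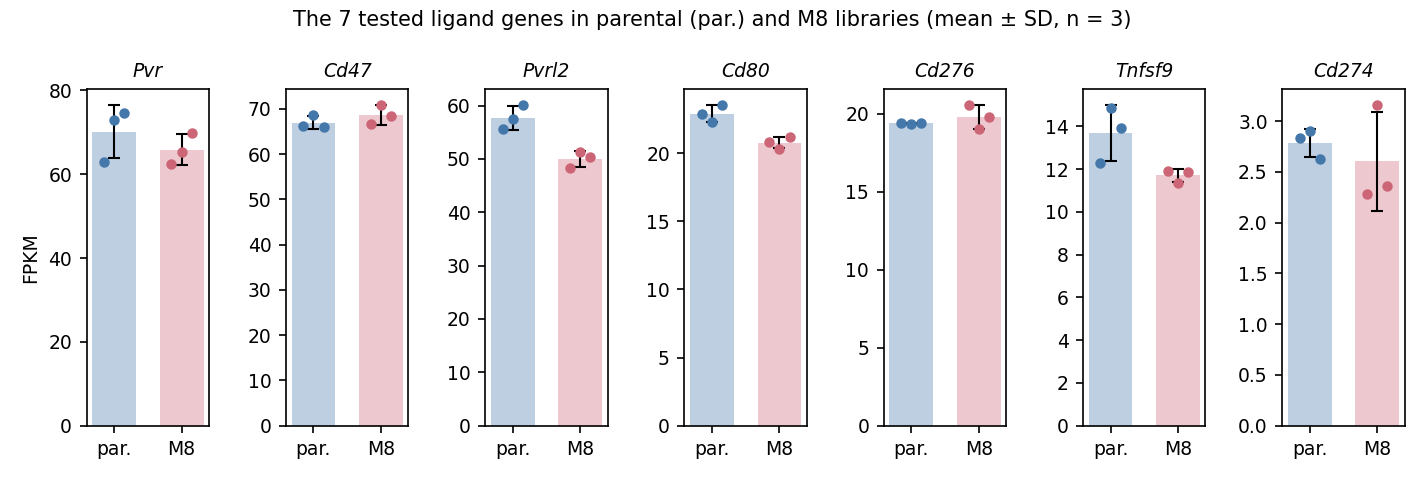
FPKM (linear axes from 0) of the 7 tested genes in parental (par., blue) and M8 (red) libraries. Bars are means, error bars are SD (n = 3) and points are libraries, and the points of the 2 lines are apart for *Pvrl2*, *Cd80* and *Tnfsf9* only.

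*Cd80*, a ligand of both CD28 and CTLA-4, was at 22.9, 22.3 and 23.5 FPKM in parental replicates 1 to 3 and at 20.8, 20.3 and 21.2 FPKM in M8. All 3 M8 values lay below all 3 parental values, 22.9 ± 0.630 against 20.8 ± 0.422 FPKM (SD, n = 3 each). The log2 fold change was -0.13 (standard error, SE, 0.045, adjusted p = 0.0515 by limma, exact two-sided permutation p = 0.1, the smallest that 3 against 3 allow). The call rested on single libraries. The limma adjusted p was 0.116 without parental replicate 3, 0.12 without M8 replicate 1 and 0.156 without M8 replicate 2.

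*Cd86*, which shares the receptors of *Cd80*, was listed at 0 in all 6 libraries. *Icosl* was listed at 0 in 3 libraries and had a single read each in parental replicate 2 and M8 replicates 2 and 3 (0.0164, 0.0202 and 0.0185 FPKM), if the smallest step between values is 1 read. Of the ligand pair of CD28, only *Cd80* had values above 0 in these libraries. *Cd276* was even, with 19.4, 19.3 and 19.4 FPKM in parental cells and 20.5, 19.0 and 19.8 FPKM in M8. The M8 values lay on both sides of the parental ones, and the log2 fold change was 0.028, with a 95% interval of -0.077 to 0.13 (limma adjusted p = 0.688). Its sign turned with TPM and upper-quartile scaling.

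*Cd274* was at 2.83, 2.90 and 2.63 FPKM in parental cells and at 2.29, 3.16 and 2.37 FPKM in M8. M8 replicate 2 was the highest of the 6 libraries and the other M8 replicates were the lowest, so the lines overlapped. The log2 fold change was -0.079 with an SE of 0.10 and a 95% interval of -0.31 to 0.16 (limma adjusted p = 0.602). It was 0.0055 with quantile normalization, and single libraries moved it, to -0.19 without M8 replicate 2 (limma adjusted p = 0.185), -0.017 without M8 replicate 1 and -0.034 without M8 replicate 3. From its single annotated transcript of 3622 bases and the estimated depth, these values correspond to about 168 to 239 reads per library, which gives a counting error of 6.5% to 7.7%. These values are compatible with any change of *Cd274* within the 95% interval. *Pdcd1lg2* had a single read, by the same reckoning, in parental replicates 1 and 2 and in M8 replicate 3 (0.0124, 0.0130 and 0.0146 FPKM) and was listed at 0 in the other 3 libraries. No fold change is given for *Pdcd1lg2*, *Icosl* or *Cd86*.

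*Pvrl2*, the gene of nectin-2, had the smallest adjusted p of the 7. Its values were 55.6, 57.4 and 60.1 FPKM in parental cells and 48.3, 51.3 and 50.3 FPKM in M8. All M8 values lay below all parental values, 57.7 ± 2.27 against 50.0 ± 1.52 FPKM (SD, n = 3 each), with a log2 fold change of -0.20 (SE 0.045, adjusted p = 0.00987 by limma, exact two-sided permutation p = 0.1). Among the 10 genes it was the only one that passed in all 17 alternatives tried, where its limma adjusted p was at most 0.0482.

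*Pvr*, the nearby gene of CD155, was at 62.9, 73.0 and 74.6 FPKM in parental cells and at 62.4, 65.3 and 69.9 FPKM in M8. Parental replicate 1 lay among the M8 replicates, and the log2 fold change was -0.087 with a 95% interval of -0.24 to 0.066 (limma adjusted p = 0.364). It was -0.16 without parental replicate 1 (limma adjusted p = 0.0525), but -0.042 without parental replicate 3 and -0.050 without M8 replicate 1 (limma adjusted p = 0.696 and 0.691). The ratio of *Pvrl2* to *Pvr* was 0.883, 0.786 and 0.806 in parental and 0.774, 0.785 and 0.719 in M8 libraries, which did not overlap but came as near as 0.786 and 0.785 (exact two-sided permutation p = 0.1).

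*Tnfsf9*, the gene of 4-1BB ligand, was at 12.3, 14.9 and 13.9 FPKM in parental cells and at 11.9, 11.4 and 11.9 FPKM in M8. The lines did not overlap, 13.7 ± 1.31 against 11.7 ± 0.313 FPKM (SD, n = 3 each), but parental replicate 1 was close to the M8 values. The log2 fold change was -0.20 (SE 0.069, adjusted p = 0.0514 by limma, exact two-sided permutation p = 0.1). It was called without parental replicate 1 (limma adjusted p = 0.0105) and lost its call without any 1 of the other 5 libraries (limma adjusted p = 0.112 to 0.166, and 0.10, just above the threshold, without M8 replicate 3) and without the filter on low values (0.113). *Gm11110*, a noncoding gene whose exons overlap those of *Tnfsf9* on the opposite strand, was lower in M8 as well, at 5.64, 7.87 and 6.47 FPKM in parental cells and 4.57, 5.62 and 4.96 FPKM in M8 (log2 fold change -0.33 with SE 0.11, adjusted p = 0.0470 by limma). Its part in the fall of *Tnfsf9* was not tested.

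*Cd47*, the signal that holds back macrophages, was at 66.2, 68.7 and 66.0 FPKM in parental cells and at 66.6, 70.9 and 68.4 FPKM in M8. The replicates overlapped, and the log2 fold change was 0.035 with a 95% interval of -0.057 to 0.13 (limma adjusted p = 0.554). Its sign turned with TPM, upper-quartile scaling and quantile normalization. GENCODE lists 10 transcripts of *Cd47*, and the deposited value is 1 per gene, so a shift between them was not analysed here.

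**Figure D3:**
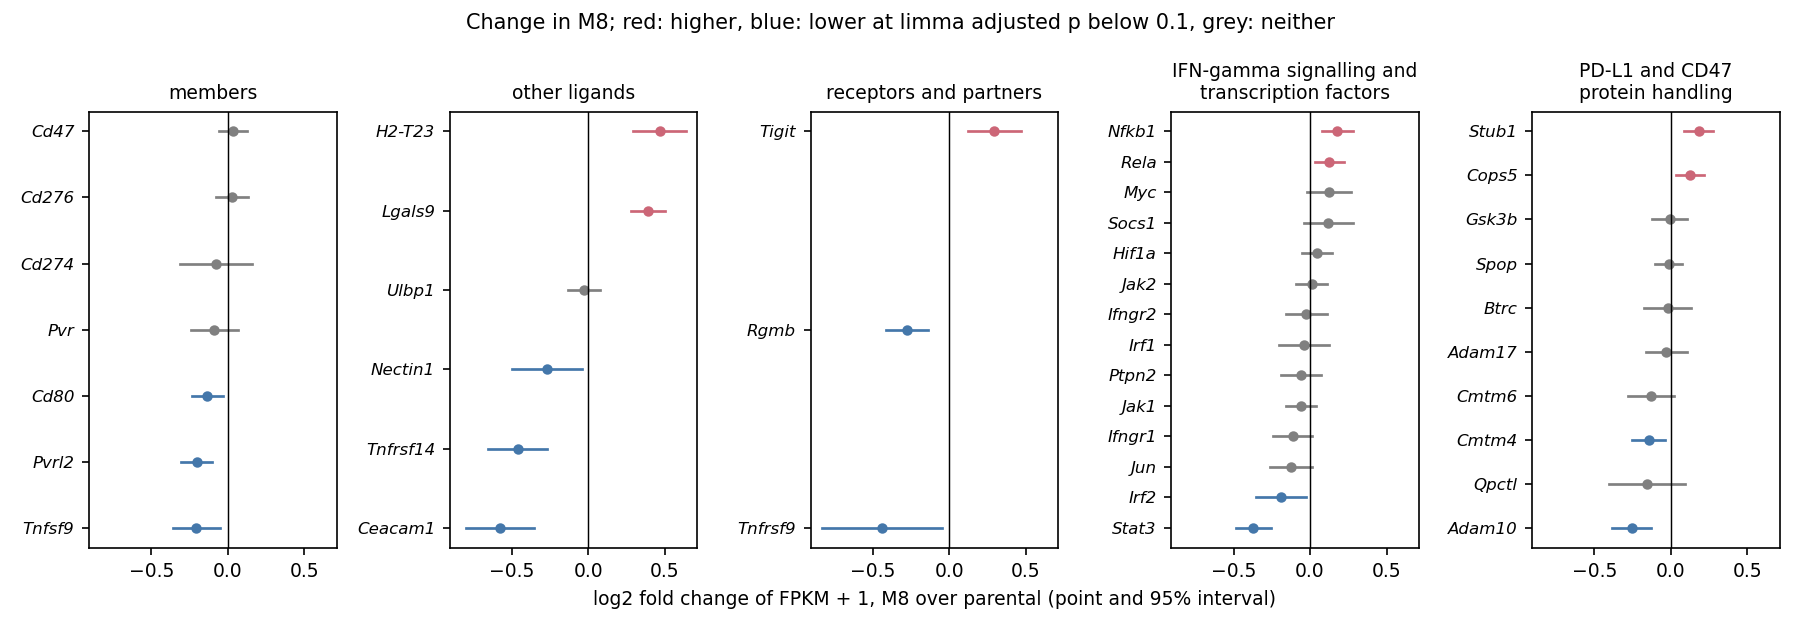
Log2 fold change of FPKM + 1, M8 over parental, with its 95% interval in limma, for the tested genes of 5 lists. Red points were higher and blue points lower at a limma adjusted p below 0.1, and the members in blue are *Cd80*, *Pvrl2* and *Tnfsf9*.

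Among other ligands read by T cells and natural killer cells, genes moved in both directions. Of 28 such genes, 6 passed a mean of 1 FPKM. Of these 6, 2 were higher in M8 and 3 were lower, against 21.2% and 16.5% of all genes tested. Their median log2 fold change was -0.15. *Lgals9*, which encodes galectin-9, a ligand of TIM-3, was the most abundant. It rose from 134.5, 124.1 and 139.3 FPKM to 177.8, 174.6 and 168.7 FPKM (log2 fold change 0.39 with SE 0.049, adjusted p = 0.000903 by limma). *H2-T23*, which encodes Qa-1, the mouse ligand of the inhibitory receptor NKG2A, rose from 10.7, 11.2 and 8.97 FPKM to 14.0, 14.4 and 15.3 FPKM (log2 fold change 0.46 with SE 0.077, adjusted p = 0.00289 by limma). *H2-T23* belongs to a large family of similar class I genes, which makes its level less certain.

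The ligands that fell in this list were low to begin with. *Ceacam1*, whose protein binds itself and TIM-3, had 2.55, 2.2 and 2.70 FPKM in parental cells and 1.37, 1.44 and 1.19 FPKM in M8 (log2 fold change -0.58 with SE 0.099, adjusted p = 0.00321 by limma). *Tnfrsf14*, which encodes HVEM, the ligand of BTLA and CD160, had 2.47, 2.60 and 2.63 FPKM in parental cells and 1.58, 1.49 and 1.70 FPKM in M8 (log2 fold change -0.46 with SE 0.086, adjusted p = 0.00467 by limma). *Nectin1*, another nectin, listed as *Pvrl1*, had 1.76, 1.70 and 1.98 FPKM in parental cells and 1.35, 1.48 and 1.16 FPKM in M8 (log2 fold change -0.27, adjusted p = 0.0739 by limma), a call that 8 of 16 alternatives lost. The lines did not overlap in any of these 5 genes, against 45.2% of all genes tested. They overlapped in *Ulbp1*, an NKG2D ligand at 19.9 to 21.3 FPKM. *Nectin1* and *Ulbp1* were named after their values were seen. In the same list 10 genes, among them *Cd70*, *Tnfsf4* and *Cd200*, were listed at 0 in all 6 libraries.

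The receptors of the 10 ligands are known mostly from lymphocytes and macrophages. Of the 10 receptors and partners found, 3 passed a mean of 1 FPKM. Of these 3, 1 was higher in M8 and 2 were lower, against 21.2% and 16.5% of all genes tested. Their median log2 fold change was -0.28. *Pdcd1*, *Cd28*, *Ctla4*, *Cd226* and *Sirpa* were listed at 0 in all libraries. *Icos* reached at most 0.0149 FPKM and *Cd96* at most 0.0260 FPKM. *Tigit*, the inhibitory receptor of CD155 and nectin-2, was nevertheless at 9.23, 11.5 and 10.3 FPKM in parental cells and at 12.3, 13.8 and 12.5 FPKM in M8. All M8 values were above all parental values (log2 fold change 0.29 with SE 0.078, adjusted p = 0.0209 by limma). The *Cd3* genes and *Cd8a*, which accompany *Tigit* in T cells, were at or near 0, with a highest value of 0.135 FPKM, for *Cd3g* in parental replicate 3. *Lck*, given above, was the T cell marker that was higher in every M8 library, as *Tigit* was, and its part in the result was not tested.

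*Tnfrsf9*, the 4-1BB receptor of *Tnfsf9*, was also present, with 8.81, 14.6 and 15.1 FPKM in parental cells and 7.42, 9.83 and 9.78 FPKM in M8. Parental replicate 1 lay among the M8 replicates. The log2 fold change was -0.44 (SE 0.18, adjusted p = 0.0891 by limma, exact two-sided permutation p = 0.3), and 5 of the 6 leave-one-out fits lost the call (adjusted p up to 0.283 by limma), the exception being the fit without parental replicate 1 (log2 fold change -0.67). The call was lost in 9 of the 17 alternatives, among them no filter on low values, quantile normalization and a variance without a trend (adjusted p = 0.225, 0.118 and 0.132 by limma). The receptor to ligand ratio, *Tnfrsf9* over *Tnfsf9*, was 0.717, 0.980 and 1.08 in parental and 0.623, 0.865 and 0.823 in M8 libraries and overlapped (exact two-sided permutation p = 0.3). *Rgmb*, which encodes a binding partner of PD-L2, was lower in M8, at 18.0, 20.4 and 20.7 FPKM against 15.4, 16.7 and 16.1 FPKM (log2 fold change -0.28 with SE 0.062, adjusted p = 0.0108 by limma).

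Among genes that act on PD-L1 transcription, few passed the test. Of 14 genes of interferon-γ signalling and transcription factors, 2 were higher and 2 were lower, with a median log2 fold change of -0.033, which is no larger a share than the 21.2% and 16.5% over all genes tested. *Stat3*, which acts at *Cd274*, fell from 25.5, 23.9 and 24.6 FPKM to 18.6, 18.1 and 19.8 FPKM (log2 fold change -0.37 with SE 0.051, adjusted p = 0.00128 by limma). The other calls in this list were smaller and were named after their values were seen, with log2 fold changes of 0.18 for *Nfkb1*, 0.13 for *Rela* (both NF-κB subunits) and -0.19 for *Irf2*, an antagonist of IRF1. Those of *Rela* and *Irf2* were lost in 6 and 7 of the 17 alternatives. *Myc* was the most abundant gene of the list and did not pass (log2 fold change 0.12, adjusted p = 0.182 by limma), although it passed without parental replicate 3 (0.19, adjusted p = 0.0466 by limma) and was at 0.046 without parental replicate 1. Exons of *Stat3* overlap those of *Stat5a* on the opposite strand. *Irf1*, chosen after its values were seen, was at 26.6, 26.5 and 30.4 FPKM in parental and 24.6, 29.0 and 27.5 FPKM in M8 libraries and overlapped between the lines (log2 fold change -0.041 with SE 0.072, adjusted p = 0.704 by limma).

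The 10 listed genes whose products handle PD-L1 or CD47 protein were all expressed. They include *Cmtm6* and *Cmtm4*, which keep PD-L1 from being degraded, the ubiquitin ligase genes *Spop* and *Stub1*, the protease genes *Adam10* and *Adam17*, and *Qpctl*, whose enzyme modifies CD47 for binding to SIRPα. Of the 10, 2 were higher in M8 and 2 were lower, against 21.2% and 16.5% of all genes tested. Their median log2 fold change was -0.026. *Stub1* was the most abundant, at 103.3 ± 1.78 FPKM in parental and 117.4 ± 5.34 FPKM in M8 libraries (SD, n = 3 each), with a log2 fold change of 0.18 (adjusted p = 0.0135 by limma). The other 3 calls were named after their values were seen. They were a rise of *Cops5*, whose product removes ubiquitin from PD-L1, by 0.13 on the log2 scale, and lower values of *Adam10* (log2 fold change -0.26) and *Cmtm4* (-0.14). *Adam10* passed in all 17 alternatives, *Stub1* in 16, *Cmtm4* in 12 and *Cops5* in 11.

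**Figure D4:**
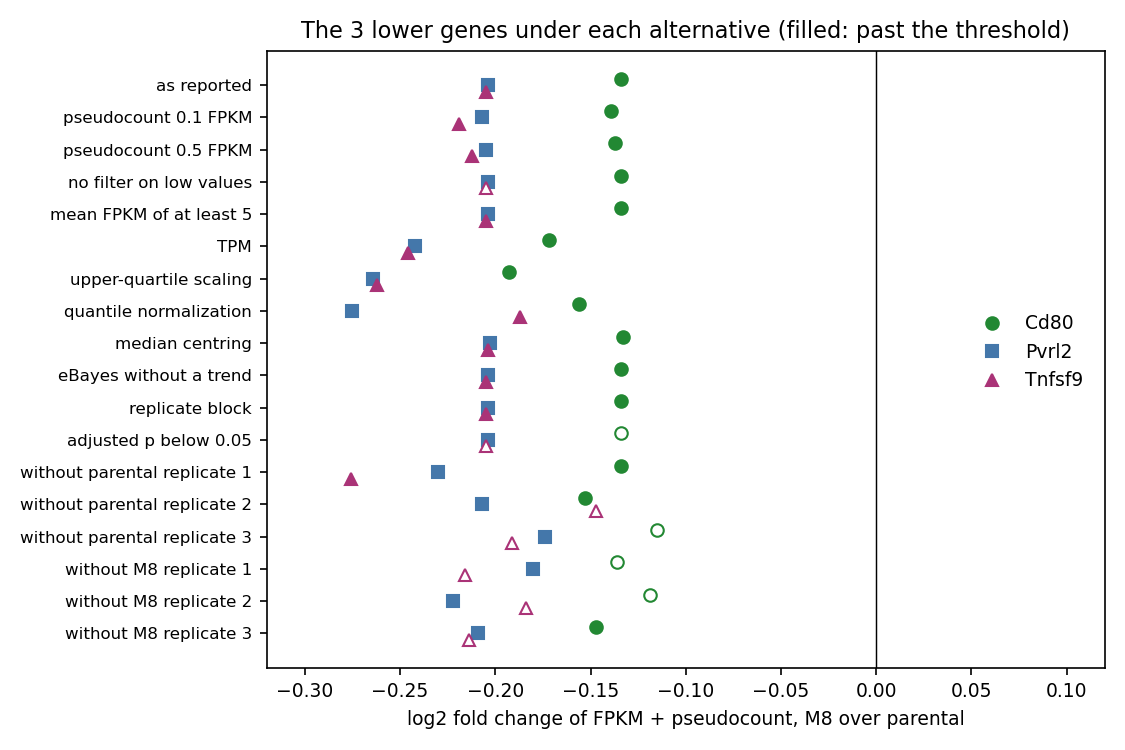
Log2 fold change, M8 over parental, of *Cd80* (circles), *Pvrl2* (squares) and *Tnfsf9* (triangles) as reported and under 17 alternatives. Filled symbols passed the limma threshold of that fit. All values lie below 0, and *Pvrl2* alone is filled in every row.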

How the data were processed

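The authors read stranded mRNA libraries as single reads, mapped them to mm10 with TopHat and deposited 1 FPKM value per gene symbol and sample from Cufflinks 2.2.1 (TopHat2 2.1.1 and Cuffdiff 2.2.1 in the submitters' processing notes). The annotation, any filter and the use of strand are not given in the sources used here. The fit was limma 3.58.1 in R 4.3.3 (lmFit, eBayes with a trend) on log2(FPKM + 1) for genes whose FPKM averaged 1 or more, all 6 samples, no covariates, called at a Benjamini-Hochberg adjusted p below 0.1. On this scale low genes have understated fold changes. The fit was tested on simulated data. Depth was estimated from the mode of ratios between low values, since 1 read gives a fixed FPKM step in a library. Counting error covers sampling of reads only. Python 3.11.15, scipy 1.17.1 and matplotlib 3.10.9 were used.

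Pvrl2 was matched by the older symbol, and Pvrig had no match. A gene of the wider lists and a motif are not reported here. The members and lists were chosen with earlier results of these data known. All members are named, as are called genes of the lists, markers included, with a fold change of at least 1.25 (at most 5), the most abundant gene of a list and receptors. Other genes, such as *Pdgfrb*, *Acta2* and those listed at 0, were named outside this rule. Alternatives tried: a pseudocount of 0.1 or 0.5, dropping the filter or raising it to a mean of 5, TPM, upper-quartile and quantile scaling, median centring, no trend, a replicate block, an adjusted p below 0.05 and each replicate left out.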

Additional observations from a re-analysis of the deposited data

How the results depend on the processing

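Across 17 alternatives, no member was higher in M8 in any fit, and the number lower was 3 except in the following. It was 4 with quantile normalization (*Pvr* added), 2 without a filter on low values (*Tnfsf9* lost), 1 at an adjusted p below 0.05 and between 1 and 4 with a replicate left out (1 without parental replicate 3, M8 replicate 1 or M8 replicate 2, and 4 without parental replicate 1). Of 118 single member values, 99 kept their direction and side of the threshold, 11 lost the call, 2 gained it and 6 turned sign, all 6 in genes that were not called. *Cd47* had log2 fold changes of -0.0019 with TPM, -0.026 with upper-quartile scaling and -0.043 with quantile normalization. *Cd276* had -0.0078 with TPM and -0.031 with upper-quartile scaling, and *Cd274* had 0.0055 with quantile normalization. *Irf1* ranged from -0.0908 to 0.0231 with a replicate left out and was positive without parental replicate 3 (0.0227) and without M8 replicate 1 (0.0231). Over all genes, upper-quartile scaling gave 1470 higher and 2769 lower genes, TPM gave 1658 and 2209, and leaving out a replicate gave 1591 to 2100 higher and 1142 to 1681 lower, the fewest without M8 replicate 1. The cause was not tested.

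Same-numbered replicates of the lines did not deviate together (correlations across genes of 0.10, -0.11 and -0.033), so the numbers were not taken to pair the samples. With the replicate block there were 0 higher and 3 lower members and 2171 higher and 1688 lower genes, and not every sample correlated best with its own number. Of the members tested, *Cd274* was the least abundant, with a counting error of up to 7.7% per library.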

Other observations

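Some ligands and inhibitors below the filter on low values were detected weakly, and they were chosen here after their values were seen. *Vtcn1*, the gene of the inhibitory ligand B7-H4, was at 0.328, 0.571 and 0.505 FPKM in parental cells and 0.300, 0.361 and 0.194 FPKM in M8, and the lines overlapped. The gene of VISTA, listed as *4632428N05Rik*, was at 0.214, 0.153 and 0.255 FPKM in parental cells and 0.0391, 0.155 and 0.101 FPKM in M8, with a small overlap. Neither was tested by limma.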
